A study of Oryza sativa and Arabidopsis thaliana with 24 samples.

Results

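The 6 tRNAs described here are encoded by plastid genes of Arabidopsis thaliana that carry an intron: tRNA-Ala (TGC), tRNA-Ile (GAT), tRNA-Lys (TTT), tRNA-Val (TAC), tRNA-Gly (TCC) and tRNA-Leu (TAA). They were chosen from the authors' list of unique tRNAs by a plastid locus and one of these 6 types, and each type had a single entry (at_tR9, at_tR104, at_tR131, at_tR232, at_tR93 and at_tR119). They are 6 of 232 unique tRNAs of Arabidopsis, of which 30 have a plastid locus, and 6 of 531 in the series with rice. None of the 299 rice tRNAs met the rule, although 25 have a plastid locus, so rice is not analysed here.

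The study sequenced tRNAs and tRNA-derived fragments (tRFs) from total RNA of flower and silique, and of rosette leaf, stem leaf and stem, all from untreated plants. All plants were grown in soil at 23 °C with 16 h of light, and RNA of all groups was pretreated with a commercial kit for tRFs before small RNA libraries were made. Flower and silique are called reproductive and the other tissues vegetative. Each tissue had 2 libraries, which the series design calls biological replicates. The sources used here do not give ecotype, plant age or the number of plants. The tables hold tRNAs only, so tissue identity could not be checked against marker genes.

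Plastids translate their own proteins with a set of tRNAs encoded in the plastid genome. In seed plants a few of these genes are interrupted, most by group II introns and the Leu (TAA) gene by a group I intron, and the precursor must be spliced before the tRNA can work. The Lys (TTT) intron holds matK, a maturase gene whose product acts in the splicing of plastid group II introns. The Ile (GAT) and Ala (TGC) genes lie in the ribosomal RNA operon. A tRNA can also be cut into fragments: tRF-5 and 5′-halves keep the 5′ end, and tRF-3 and 3′-halves keep the 3′ end with the CCA tail that is added after transcription.

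The 6 mature sequences from the authors' tRNA list are printed 5′ to 3′ with the part encoded by the second exon, and the added CCA, in capitals, since every fragment below is placed on them.
Ala (TGC): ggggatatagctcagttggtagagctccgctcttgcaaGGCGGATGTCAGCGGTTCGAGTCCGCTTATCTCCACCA
Ile (GAT): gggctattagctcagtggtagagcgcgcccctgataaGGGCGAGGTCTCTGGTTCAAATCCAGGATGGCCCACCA
Lys (TTT): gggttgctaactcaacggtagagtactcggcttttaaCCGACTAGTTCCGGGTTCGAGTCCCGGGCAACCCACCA
Val (TAC): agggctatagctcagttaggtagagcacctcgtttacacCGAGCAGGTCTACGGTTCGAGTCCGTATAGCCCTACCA
Gly (TCC): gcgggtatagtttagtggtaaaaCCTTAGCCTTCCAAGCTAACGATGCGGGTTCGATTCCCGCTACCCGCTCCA
Leu (TAA): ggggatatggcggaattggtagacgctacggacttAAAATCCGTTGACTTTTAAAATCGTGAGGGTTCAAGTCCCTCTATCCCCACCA

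The introns sit at different places of the tRNA. Counted from base 1 at the 5′ end, the junction follows base 38 in Ala, 37 in Ile, 37 in Lys and 39 in Val, which is at the 3′ edge of the anticodon loop. In Leu it follows base 35 and splits the anticodon at bases 35 to 37 after its first base. In Gly it follows base 23, well before the anticodon at bases 33 to 35. In the RefSeq chloroplast genome of 154478 bases, trnK runs from 1717 to 4347 on the minus strand with an intron of 2559 bases that holds the matK coding sequence. The trnG gene runs from 8646 to 9431 on the plus strand (intron 714 bases), trnL from 46894 to 47490 on the plus strand (512 bases) and trnV from 51199 to 51871 on the minus strand (599 bases). The trnI gene has a copy at 102801 to 103601 on the plus strand and one at 135048 to 135848 on the minus strand (729 bases), and trnA has one at 103665 to 104538 on the plus strand and one at 134111 to 134984 on the minus strand (801 bases). The 2 copies of each have the same mature sequence and are counted as 1 tRNA. The spliced exons equal the listed sequence in 5 of the 6 tRNAs. In Gly the annotation has 1 more C at the junction than the list. Of the listed fragments, 11 carry the junction as in the list and 0 the longer form, but only fragments that match the authors' list are in the table.

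**Figure D1:**
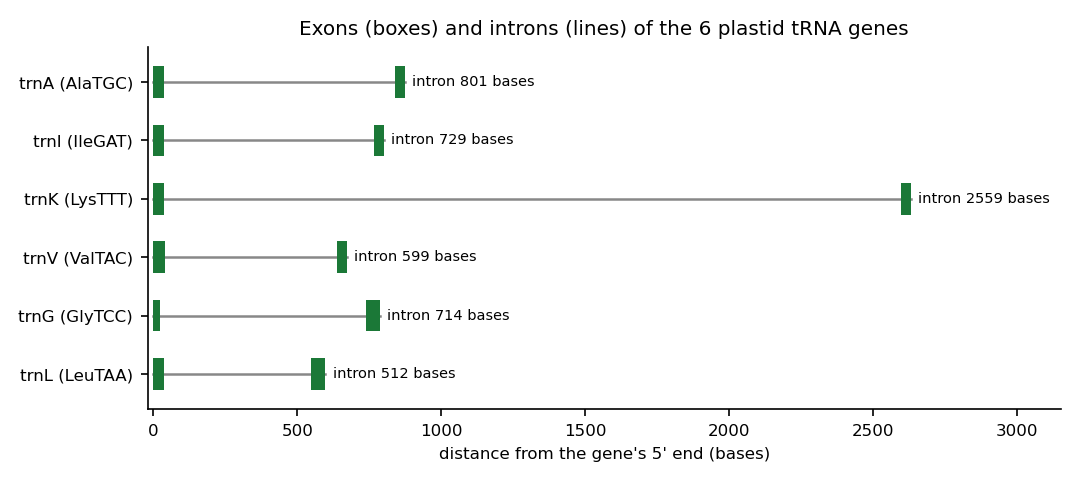
Exons (green boxes) and intron (grey line) of the 6 plastid tRNA genes from the RefSeq annotation, drawn to scale along the distance from each gene's 5′ end in bases; for trnI and trnA 1 of the 2 copies is drawn. The trnK intron of 2559 bases is the longest and the trnL intron of 512 bases the shortest.

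No member is close in sequence to another tRNA of the list. The closest other tRNA shared 69.8% of aligned bases with Leu, 71.1% with Lys, 72.7% with Ile, 74.0% with Val, 75.6% with Ala and 78.7% with Gly. Of 317 listed fragments assigned to the members with at most 2 mismatches, 2 matched a tRNA outside the members equally well. Both are Ala fragments with the substitution A7G, given as the base of the mature sequence, its position and the base of the fragment.

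The levels used below are scaled read numbers. The tRNA signal is the authors' abundance per tRNA and the tRF total is the abundance of all tRFs of a tRNA, both in RPM (reads per 1000000, as scaled by the authors). Per library, 19741 to 232097 reads stood behind the tRNA signal, while tRFs had between 259630 and 1536470. The second library of every tissue held 1.57 to 1.60 times the tRF reads of the first. The read numbers of the 2 libraries differed by more than counting error in every tissue (chi-square per degree of freedom 2.22 to 3.47 over the tRF totals). The p-values here measure the spread between such pairs, which may be technical. The tRF totals sum to the same number in every library, but the tRNA signal sums to between 160329 and 850392 RPM and was highest in silique. Shares of the plastid signal are therefore given beside RPM.

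Together the 6 tRNAs held a small part of the plastid tRNA signal, and that part was smallest in silique. It was 5.42 ± 0.207% in flower, 1.60 ± 0.157% in silique, 8.49 ± 0.209% in rosette leaf, 9.32 ± 0.214% in stem leaf and 5.08 ± 0.343% in stem (SD, n = 2 each). Their part of the plastid tRF totals was larger in every tissue. It was 29.5 ± 0.0346% in flower, 23.7 ± 0.724% in silique, 23.7 ± 0.245% in rosette leaf, 24.1 ± 0.342% in stem leaf and 30.2 ± 0.158% in stem. Among the 30 plastid tRNAs, Leu ranked 12th by mean share of the tRNA signal and the other members 18th to 23rd. By tRF totals Val ranked 3rd, Leu 4th and Ala 9th, and Gly, Ile and Lys ranked 22nd, 24th and 26th.

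All 6 tRNAs had less tRNA signal in the reproductive than in the vegetative tissues by the contrast of means, and for Gly, Lys and Val the silique libraries held almost no reads. Gly, which reads glycine codons, had 363 and 405 RPM in flower, 86.2 and 0 in silique, 1478 and 1261 in rosette leaf, 3108 and 3225 in stem leaf, and 1829 and 1147 in stem. Every flower and silique library lay below every library of the vegetative tissues. Its log2 fold, reproductive minus vegetative, was -4.94 ± 1.03 (SE; limma adjusted p = 0.00300). Lys, the tRNA of lysine codons, had 318 and 382 RPM in flower, 0 and 57.3 in silique, 886 and 877 in rosette leaf, 1731 and 1846 in stem leaf, and 1328 and 1383 in stem. The reproductive libraries again lay below all others (log2 fold -4.64 ± 0.941, limma adjusted p = 0.00252). Val, the tRNA of valine codons, had 685 and 593 RPM in flower, 0 and 57.3 in silique, 962 and 980.4 in rosette leaf, 2618 and 2363 in stem leaf, and 1528 and 911 in stem. Its log2 fold was -4.35 ± 0.946 (limma adjusted p = 0.00375), with no overlap of reproductive and vegetative libraries.

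Those 3 log2 folds were the lowest of the whole table, and they rest on very few silique reads. In both silique libraries together Gly, Lys and Val had 2 reads each, against 1494, 846 and 1160 reads in stem leaf. In silique, 0 reads allow a level of up to 129 RPM in replicate 1 and up to 86.0 RPM in replicate 2 (3 reads). In pooled reads, silique was 92.3-fold lower than stem leaf for Gly (95% interval 25.5 to 763), 52.3-fold lower for Lys (14.4 to 432) and 71.7-fold lower for Val (19.8 to 593). These exact intervals cover counting error only. Without silique replicate 1 the log2 folds were -6.56 for Gly, -3.17 for Lys and -2.88 for Val, and without silique replicate 2 they were -3.33, -6.11 and -5.81. With a pseudocount of 10 RPM in place of 1 RPM they were -4.07, -3.75 and -3.46. All stayed called, and the size of these log2 folds depends on the pseudocount.

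Ile, Ala and Leu were lower by less. Ile, the tRNA of isoleucine codons, had 537 and 419 RPM in flower, 431 and 401 in silique, 1173 and 1245 in rosette leaf, 2341 and 2270.1 in stem leaf, and 1829 and 1703 in stem (log2 fold -1.93 ± 0.0973, limma adjusted p = 2.9e-07). Flower and silique overlapped each other and lay below the rest. Ala, the tRNA of alanine codons, had 531 and 492 RPM in flower, 905 and 802 in silique, 2349 and 2384 in rosette leaf, 2326 and 2489 in stem leaf, and 2005 and 1535 in stem (log2 fold -1.70 ± 0.0952, limma adjusted p = 4.9e-07). Silique lay above flower here, and both lay below every vegetative library. Leu, the tRNA of leucine codons and the most abundant member, had 3429 and 3576 RPM in flower, 3231 and 2809 in silique, 3039 and 3441 in rosette leaf, 9986 and 9971 in stem leaf, and 4535 and 4975 in stem (log2 fold -0.72 ± 0.0624, limma adjusted p = 1.0e-05). The rosette leaf libraries of Leu overlapped those of flower and those of silique, so its contrast in RPM rests on stem leaf and stem.

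**Figure D2:**
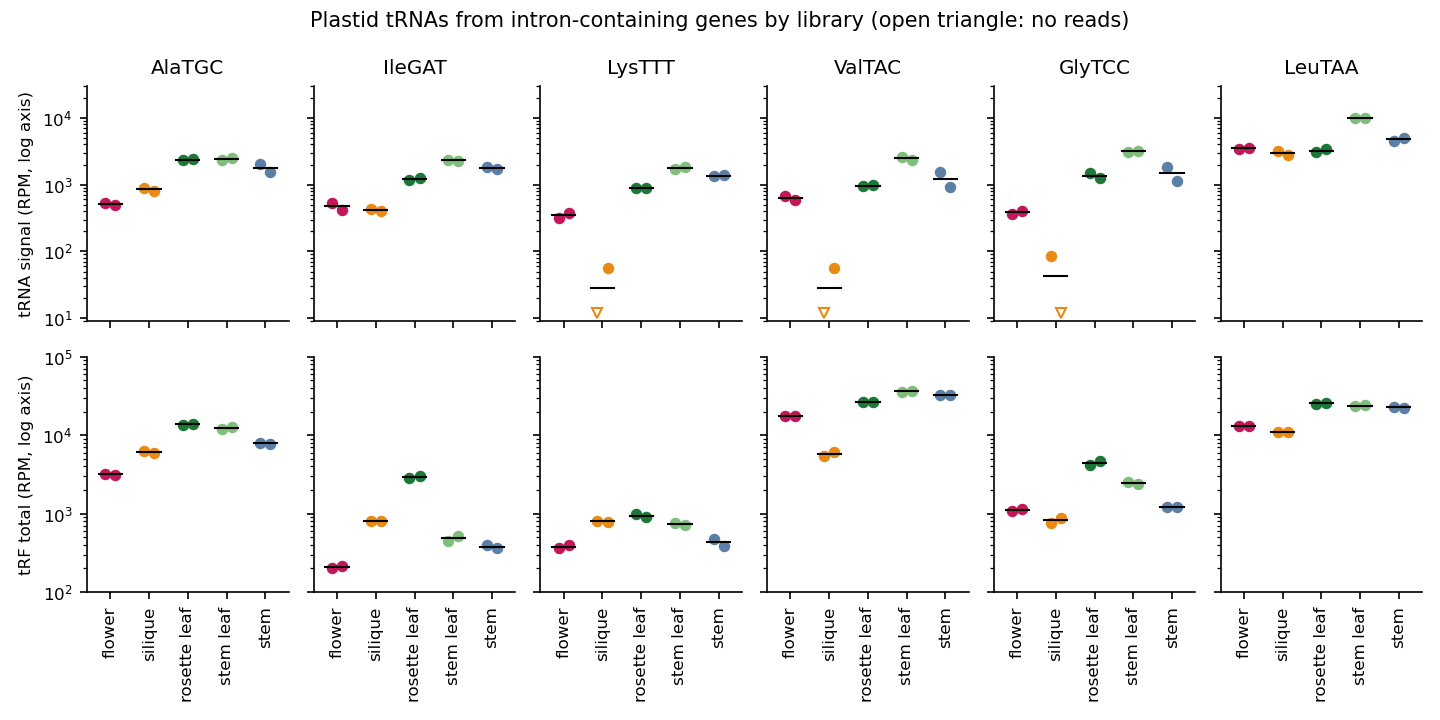
Level of each of the 6 tRNAs in each library, tRNA signal above and tRF totals below, in RPM on log axes; points are libraries, black lines tissue means of 2 libraries, and open triangles at the bottom mark libraries with no reads. Lys, Val and Gly drop to between 0 and 86.2 RPM of tRNA signal in silique, while their tRF totals there stay at 759 RPM or more.

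All 6 members were called in the test of any difference among the 5 tissues, as were 63% of all 200 tRNAs tested and 90% of the 30 plastid tRNAs scaled by the plastid total (limma, adjusted p under 0.05). Without flower replicate 2 Gly was no longer called in this test (adjusted p = 0.0569). In the reproductive minus vegetative contrast 6 of 6 members were lower, against 8.5% of the table, and 0 were higher, against 53.5%. The median log2 fold was -3.14 for the members, -0.12 for the 24 other plastid tRNAs and 1.499 for all features. The size of the members' median depends on Gly, Lys and Val, whose folds rest on few silique reads and on the pseudocount. Of the other plastid tRNAs 6 were higher and 9 lower. After rescaling every library to the same total the median of all features was 0.87, and 6 of 6 members and 19 of 24 other plastid tRNAs were lower, against 13.9% of the table. Scaled by the plastid total, 6 of 6 members were again lower by the contrast of means, against 46.7% of the 30 plastid tRNAs. In that contrast 0 were higher, against 26.7%. For Leu, flower (3.23%) then lay above rosette leaf (2.74%) and stem (1.96%), so its contrast rests on silique (1.104%) and stem leaf (4.202%). Flower and stem libraries of Val overlapped on this scale, and the other members lay below every vegetative library in both reproductive tissues. As a share of all tRNA signal, too, Leu was higher in flower than in stem. The summed signal of all plastid tRNAs was not lowest in silique in RPM. Its mean was 108343 RPM in flower, 273669 in silique, 118343 in rosette leaf, 237539 in stem leaf and 243300 in stem. As a share of all tRNA signal it was 33.6%, 32.2%, 71.3%, 71.4% and 47.8% in the same order. The cause of the members' lower levels in RPM was not tested. Bulk tissue does not separate the number of cells with plastids, plastids per cell and RNA per plastid. The cause of the members' lower share of the plastid tRNA signal, by the contrast of means, was not tested.

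By mean RPM, the tissue order of tRF totals was that of the tRNA signal in Val and, but for a pair of tissues whose tRNA signal libraries overlapped, in Ala, and it differed in Ile, Lys, Gly and Leu. For Val the tRNA signal libraries of stem and rosette leaf overlapped. As a share of all tRNA signal, Val was higher in rosette leaf (0.585 ± 0.0204%) than in stem (0.240 ± 0.0851%). Ala was higher in flower (0.159 ± 0.0147%) than in silique (0.101 ± 0.00829%), so both matches hold in RPM only. Val had 17619 and 17746 RPM of tRFs in flower, 5401 and 6021 in silique, 26556 and 26454 in rosette leaf, 35846 and 36420.2 in stem leaf, and 32165 and 32652 in stem (log2 fold -1.65 ± 0.0246, limma adjusted p = 2.0e-16). Silique was lowest and stem leaf highest, with no overlap between any 2 tissues. Leu had 13010.5 and 13051 RPM in flower, 10892 and 11085 in silique, 25249.8 and 25448 in rosette leaf, 23595 and 23918 in stem leaf, and 23171 and 22504 in stem (log2 fold -1.002 ± 0.0161, limma adjusted p = 4.0e-16). The 3 vegetative tissues held about the same level, from 22504 to 25448 RPM, and all lay above the reproductive libraries. Ala had 3207 and 3142 RPM in flower, 6242 and 5893 in silique, 13588 and 13929 in rosette leaf, 12114 and 12685 in stem leaf, and 7877 and 7795 in stem (log2 fold -1.33 ± 0.0264, limma adjusted p = 3.2e-15).

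Gly had 1092 and 1138 RPM of tRFs in flower, 759 and 884 in silique, 4133 and 4627 in rosette leaf, 2549 and 2358 in stem leaf, and 1209 and 1208 in stem (log2 fold -1.30 ± 0.0592, limma adjusted p = 5.5e-11). Rosette leaf stood highest, and the flower and stem levels were close without overlapping. Ile had 205 and 216 RPM in flower, 792 and 805 in silique, 2882 and 2988 in rosette leaf, 451 and 524 in stem leaf, and 393 and 359 in stem (log2 fold -0.98 ± 0.0800, limma adjusted p = 3.9e-08). Rosette leaf held 13.9 times the flower mean, and silique lay above stem leaf and stem, so the vegetative tissues did not move together. Lys had 364 and 394 RPM in flower, 799.9 and 791 in silique, 977 and 899 in rosette leaf, 749 and 714 in stem leaf, and 469.9 and 386 in stem (log2 fold -0.27 ± 0.0841, limma adjusted p = 0.00951). Silique lay above stem leaf, and flower and stem overlapped, so this fold is small beside the differences within each group of tissues.

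In tRF totals, too, all 6 members were called among the 5 tissues, but so were 94.2% of the 226 totals tested and 100% of the 30 plastid totals scaled by their sum. In the contrast 6 of 6 were lower, against 23.5% of the table, and 0 were higher, against 53.5%. The median log2 fold was -1.15 for the members and -1.15 for the other plastid tRNAs, of which 1 was higher and 21 lower, and 0.53 for all totals. When plastid totals were scaled to the same sum, 3 members were higher (against 46.7% of 30 plastid totals), 1 was lower (against 43.3%), and Ala and Gly were not called. Lys then had a log2 fold of 1.01, Ile 0.30 and Leu 0.28, and Val -0.36. By the contrast of means, the lower tRF totals of Lys, Ile and Leu in RPM thus reverse as shares of the plastid tRFs. The tissues did not all follow. For Ile rosette leaf still had the highest share (0.942%), and flower and stem libraries overlapped. For Lys flower and rosette leaf libraries overlapped, and only silique (0.747%) lay above every vegetative library. For Leu silique (10.3%) overlapped stem (10.6%).

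For each of the 6, the share of tRFs was largest relative to the share of tRNA signal in silique. Val held 0.0104 ± 0.0147% of the plastid tRNA signal in silique but 5.37 ± 0.487% of the plastid tRFs (n = 2). In rosette leaf it held 0.821 ± 0.0263% and 8.51 ± 0.0132%. Lys held 0.0104 ± 0.0147% of the signal and 0.747 ± 0.00438% of the tRFs in silique, and 0.746 ± 0.0394% and 0.301 ± 0.0172% in rosette leaf. Ala held 0.312 ± 0.0305% and 5.70 ± 0.152% in silique, and 2.00 ± 0.0711% and 4.42 ± 0.0825% in rosette leaf. Leu was nearest to even in stem leaf, with 4.20 ± 0.108% of the signal and 7.55 ± 0.0871% of the tRFs. Ile had a smaller share of tRFs than of tRNA signal in every tissue but silique, and in stem leaf it held 0.155 ± 0.0167% of the tRFs and 0.971 ± 0.0453% of the signal. These ratios got no test.

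**Figure D3:**
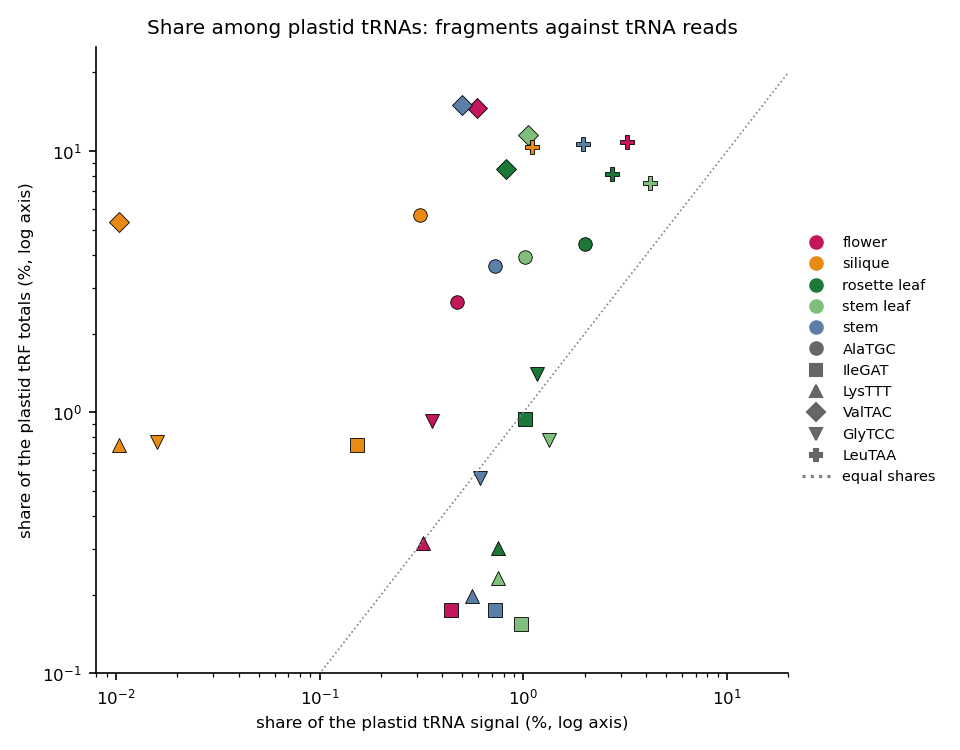
Share of the plastid tRF totals against share of the plastid tRNA signal in percent, both axes logarithmic, 1 point for each tRNA (shape) and tissue (colour, mean of 2 libraries); the dotted line marks equal shares. Val, Ala and Leu lie above the line in all 5 tissues, Ile, Lys and Gly lie on both sides of it, and the silique points of Val, Lys and Gly near 0.01% rest on 2 tRNA reads each.

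By the rule for likeness, the tRNAs whose tissue means followed the summed members most closely were all plastid. In tRF totals these were Met (CAT) at_tR102 with a Pearson r of 0.999, Gln (TTG) at_tR70 with 0.994 and Tyr (GTA) at_tR219 with 0.955. In tRNA signal they were Met (CAT) at_tR135 with 0.891, Leu (CAA) at_tR114 with 0.868 and Val (GAC) at_tR228 with 0.865. Each r is over 5 tissue means that share their libraries, and is given as a description.

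The fragments came mostly from the 5′ end in Val, Ala and Leu and mostly from the 3′ end in Ile. Of the 317 assigned fragments, from 17 to 40 nt long, 223 had no mismatch. By the authors' classes 148 were tRF-5, 22 were 5′-halves, 119 were tRF-3 and 28 were 3′-halves. Val gave 83 fragments, Leu 75, Ala 69, Gly 40, Lys 29 and Ile 21. Listed fragments covered 96.7% to 97.2% of the Val tRF total, but only 14.5 ± 0.736% of the Lys total in silique and 71.1 ± 4.09% in rosette leaf. They covered 51.1 ± 1.72% of the Ala total in silique and 79.2 ± 1.48% or more elsewhere, and 45.3 ± 3.50% of the Gly total in rosette leaf and 69.9 ± 4.82% or more elsewhere. For Ile they covered 46.7 ± 8.01% in silique and 42.9 ± 1.65% in stem, and up to 74.1 ± 1.71% in rosette leaf. Shares of listed reads in these tissues therefore describe a limited part of the tRFs. For Lys they rest on 30 reads or more per library.

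The fragments that carry these patterns are printed below 5′ to 3′ with anticodon bases in capitals. For each type the most abundant fragment and the most abundant of the other end are shown, then further fragments among the 5 with the widest range of tissue means on the log2(RPM + 1) scale.
Val 1-20: agggctatagctcagttagg
Val 49-77: ctacggttcgagtccgtatagccctacca
Leu 1-24: ggggatatggcggaattggtagac
Leu 51-88: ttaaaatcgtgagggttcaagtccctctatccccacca
Ala 1-17: ggggatatagctcagtt
Ala 49-76: agcggttcgagtccgcttatctccacca
Gly 1-18: gcgggtatagtttagtgg
Gly 35-74: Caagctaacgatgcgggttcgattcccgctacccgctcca
Ile 40-75: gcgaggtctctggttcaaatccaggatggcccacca
Ile 1-18: gggctattagctcagtgg
Lys 1-24: gggttgctaactcaacggtagagt
Lys 36-75: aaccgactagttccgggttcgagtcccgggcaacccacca
Val 1-36: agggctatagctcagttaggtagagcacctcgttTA
Ile 41-75: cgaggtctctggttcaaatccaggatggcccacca
Leu 1-37: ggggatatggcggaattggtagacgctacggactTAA
Gly 1-34: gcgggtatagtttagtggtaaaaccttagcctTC

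The 5′ fragments of Val, Leu and Ala stop mainly in or just after the D arm, before the exon junction, so their letters are the same in spliced and unspliced RNA. Over 10 libraries, 33.4% of Val 5′ reads without mismatch ended at base 20 and 24.5% at base 26. Of Leu 5′ reads 37.0% ended at base 24 and 19.1% at base 25. Of Ala 5′ reads 56.8% ended at base 17 and 18.3% at base 36, the last base of the anticodon. Gly is the member whose junction lies in the D arm, and 35.5 ± 1.73% of its fragment reads crossed the junction in flower, 33.6 ± 5.92% in silique, 35.8 ± 5.55% in rosette leaf, 49.3 ± 0.303% in stem leaf and 55.6 ± 5.78% in stem. In Leu 0.279 ± 0.116% of reads crossed it in silique and 11.6 ± 0.444% in rosette leaf, and in Lys 39.1 ± 5.999% did in flower and 4.00 ± 5.66% to 19.4 ± 2.12% in the other tissues. No listed Ile fragment crossed it.

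The 3′ fragments begin at a few places. In Ile the place depended on the tissue: base 56 began 48.0% of 3′ reads in flower, 88.5% in silique, 7.33% in rosette leaf, 53.9% in stem leaf and 89.4% in stem. In rosette leaf 31.0% began at base 40 and 24.6% at base 41, and Ile 3′ reads were most abundant there, at 1919 and 1927 RPM. In Leu 22.8% began at base 51 and 19.7% at base 50 over 10 libraries, in the long variable arm that the other members lack. Base 69 was the most common Leu start in silique (35.2%) and stem (23.1%), and began 1.82% of reads in rosette leaf. In Gly 31.7% began at base 35, inside the anticodon. Most 3′ fragments carried the full CCA, from 87.9% of reads in Ile to 96.9% in Ala, and the rest ended in CC. CCA follows the gene in 0 of the 8 plastid loci, so the genes do not encode these bases.

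**Figure D4:**
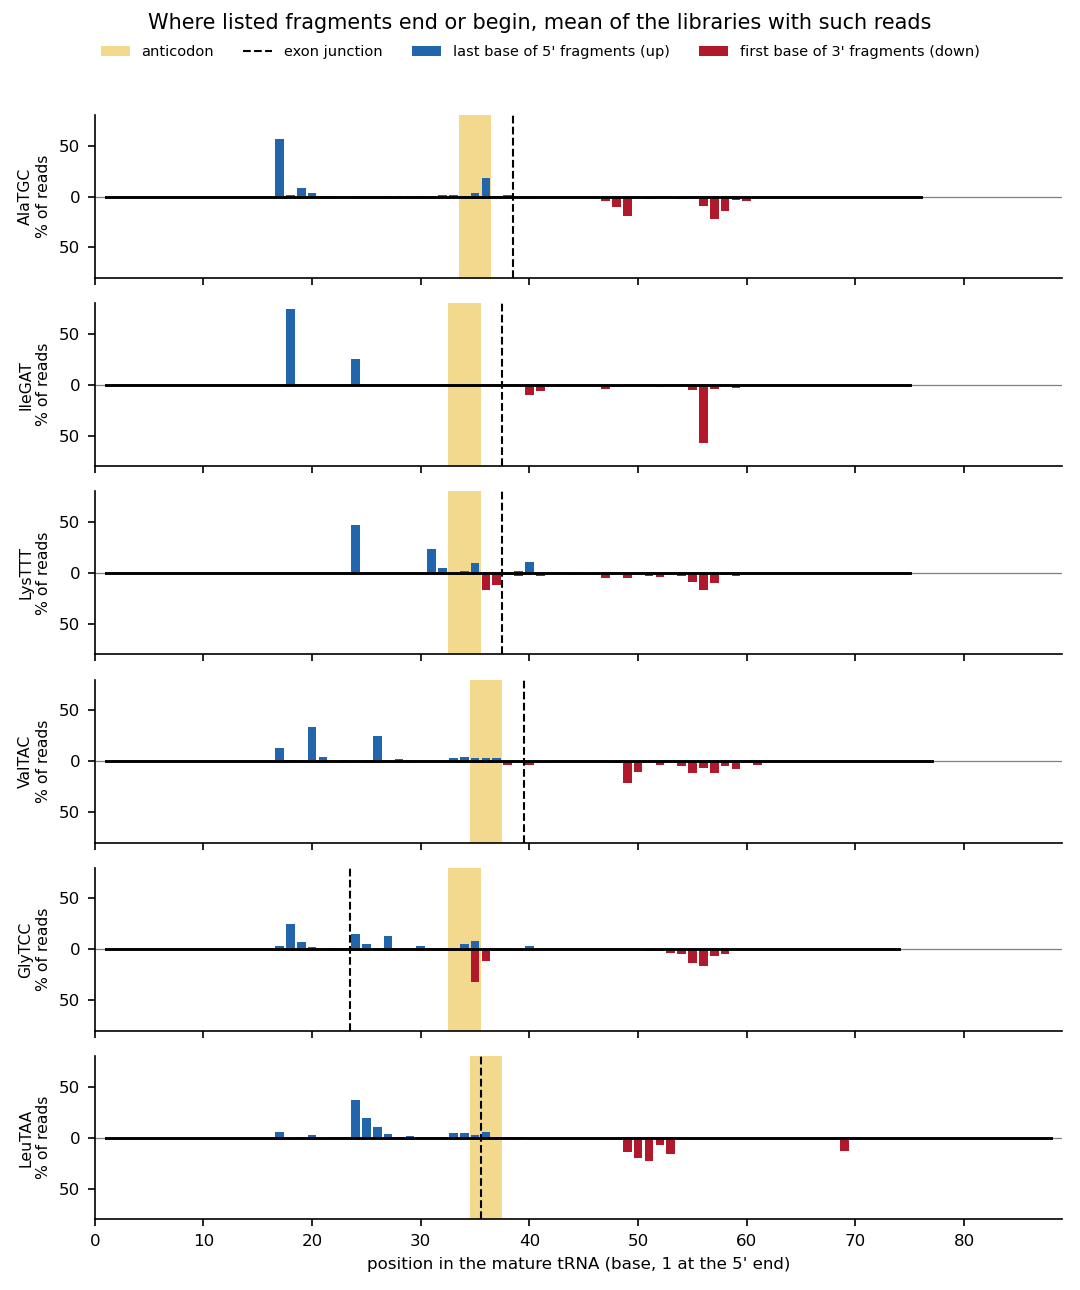
Last base of 5′ fragments (blue, up) and first base of 3′ fragments (red, down) along each mature tRNA, as percent of the 5′ or 3′ fragment reads without mismatch, mean of the libraries with such reads (all 10, except that silique replicate 1 has none for Ile 5′ fragments); the yellow band marks the anticodon and the dashed line the exon junction. The highest bars are base 18 in Ile (74.5%), base 56 in Ile (57.4%) and base 17 in Ala (56.8%). The base 18 bar of Ile rests on few reads. It ranges from 36.4% to 100% by library, with 27 RPM or less of Ile 5′ fragments outside rosette leaf.

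Whether a 5′ fragment ended in the anticodon loop differed among tissues, and in Val, Leu, Gly and Lys silique had the lowest mean share. In Leu 20.7 ± 0.635% of 5′ reads ended in the 7-base loop in flower, 1.65 ± 0.131% in silique, 40.4 ± 0.302% in rosette leaf, 19.2 ± 0.441% in stem leaf and 9.19 ± 0.604% in stem. In Val the values were 16.7 ± 0.2996% in flower, 4.31 ± 0.849% in silique, 28.8 ± 1.15% in rosette leaf, 23.1 ± 0.279% in stem leaf and 11.4 ± 0.352% in stem. In Gly they were 13.9 ± 2.47% in flower, 0.758 ± 1.07% in silique, 43.5 ± 2.94% in rosette leaf, 14.98 ± 0.316% in stem leaf and 11.8 ± 3.74% in stem. In these 3 tRNAs rosette leaf had the highest share. Lys, with few reads, had 9.09 ± 12.9% in silique and 37.4 ± 2.04% to 54.7 ± 4.45% elsewhere. Ala went the other way, with 39.5 ± 0.376% in silique and 20.6 ± 1.65% to 24.9 ± 1.63% elsewhere. No listed 5′ fragment of Ile ended in the loop. The loop was picked as a region with the values in view, and the shares got no test.

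The share of 5′ fragments among all listed fragment reads was tested for each type. For Val it was 98.5 ± 0.122% in flower, 99.2 ± 0.292% in silique, 97.8 ± 0.0485% in rosette leaf, 99.3 ± 0.0453% in stem leaf and 99.7 ± 0.0833% in stem. For Leu it was 66.9 ± 1.76% in flower, 85.0 ± 0.236% in silique, 62.8 ± 0.720% in rosette leaf, 64.3 ± 0.168% in stem leaf and 86.0 ± 0.711% in stem. Val thus gave 5′ fragments almost alone in every tissue, while silique and stem stood above the other tissues for Leu. For Ala the share was 89.9 ± 0.746% in flower, 85.8 ± 2.33% in silique, 74.7 ± 0.840% in rosette leaf, 92.1 ± 0.0613% in stem leaf and 92.9 ± 0.525% in stem. For Ile it was 12.9 ± 5.10% in flower, 0.565 ± 0.799% in silique, 6.20 ± 0.396% in rosette leaf, 4.34 ± 0.407% in stem leaf and 16.8 ± 1.75% in stem. Ala had its lowest share in rosette leaf and Ile in silique. For Gly it was 69.3 ± 2.58% in flower, 54.6 ± 8.63% in silique, 54.0 ± 4.97% in rosette leaf, 80.9 ± 1.92% in stem leaf and 90.2 ± 5.53% in stem. For Lys it was 32.8 ± 0.168% in flower, 32.0 ± 17.0% in silique, 31.6 ± 0.202% in rosette leaf, 55.1 ± 10.5% in stem leaf and 55.5 ± 5.72% in stem.

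The range over the 5 tissue means was 23.1 percentage points in Leu, 18.2 in Ala and 1.99 in Val (exact permutation p = 0.0159 each, the smallest possible, adjusted p = 0.0317 over 6 types). It was 16.2 points in Ile (exact permutation, adjusted p = 0.0476), and it did not pass in Gly (36.2 points, adjusted p = 0.0952) or Lys (23.9 points, adjusted p = 0.473). The calls need all 10 libraries, and how firm they are could not be settled by leaving out 1. That leaves a tissue with a single library. When this tissue has neither the highest nor the lowest mean, partitions that set an extreme library alone give a range at least as large. A call lost in this way does not show that the shares are fragile. Without 1 library the ranges moved little, to between 22.6 and 23.6 points in Leu and between 17.6 and 18.8 in Ala. Among fragments of at least 18 nt, which leaves out Ala 1-17, the Ala range was 31.2 points, and the calls of Ile (16.2 points, adjusted p = 0.0635) and Leu (24.5 points, adjusted p = 0.0714) were lost by exact permutation.

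**Figure D5:**
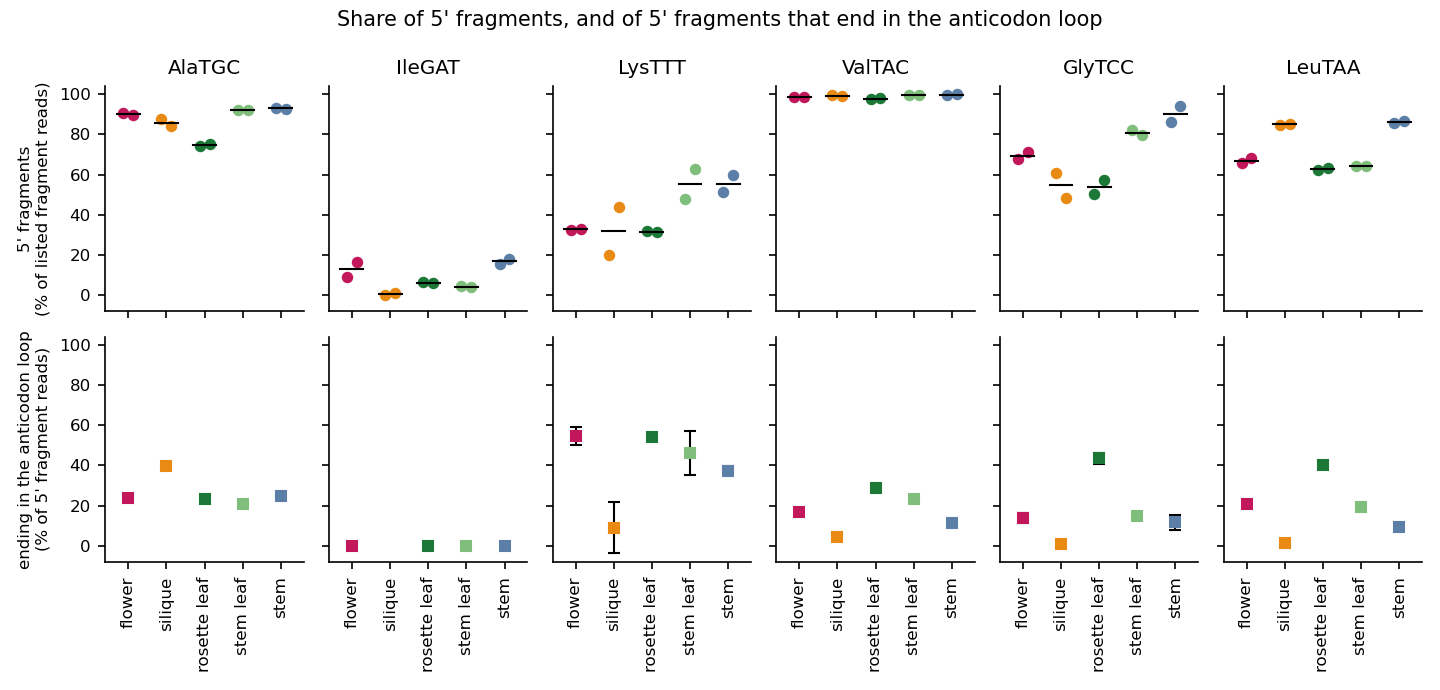
Upper panels show the share of 5′ fragments in percent of listed fragment reads for each tRNA, with points for libraries and black lines for tissue means of 2 libraries. Lower panels show the percent of 5′ fragment reads without mismatch that end in the anticodon loop, mean and SD of 2 libraries (Ile in silique is left out because 1 library has no 5′ read); in Leu the loop share is 1.65% in silique and 40.4% in rosette leaf.

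Of the 317 member fragments 156 were called among the 5 tissues (49.2%), against 33.2% of all 5808 fragments tested (limma, adjusted p under 0.05). Fragments of 1 tRNA are not independent, and these shares were not compared by a test. The called member fragments were highest in rosette leaf in 102 cases, in stem leaf in 31, in stem in 17, in flower in 3 and in silique in 3. These counts were not made for other fragments, so they show nothing particular to the members. All plastid tRNAs together held 31.2% of the tRF totals in rosette leaf and 31.5% in stem leaf. They held 21.5% in stem, 12.1% in flower and 10.6% in silique. Ile had the largest called part, 18 of 21 fragments, 16 of them highest in rosette leaf. Leu had 39 of 75, Val 35 of 83, Ala 34 of 69, Gly 18 of 40 and Lys 12 of 29.

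The 5 fragments with the widest range of tissue means on the log2(RPM + 1) scale, among those with a mean of at least 10 RPM, all had their highest mean in rosette leaf. The Ile 3′-half 40-75, which begins 3 bases after the junction, had 5.18 and 0 RPM in flower, 14.95 and 9.53 in silique, 607 and 586 in rosette leaf, 29.2 and 38.6 in stem leaf, and 0 and 2.46 in stem (limma adjusted p = 4.3e-04). The 3′-half 41-75, 1 base shorter, had 3.11 and 1.30 RPM in flower, 0 and 0 in silique, 507 and 440.0 in rosette leaf, 4.49 and 11.4 in stem leaf, and no reads in stem (limma adjusted p = 1.3e-04). Both were far higher in rosette leaf than elsewhere, with stem leaf next by mean. Silique was at least 42.2-fold lower than rosette leaf for 41-75 (against 3 reads in the shallower library). For 40-75 the stem libraries together held 1 read, 396-fold lower than rosette leaf in pooled reads (95% interval 70.7 to 15675). The Ile tRNA signal in rosette leaf was lower than in stem leaf in RPM, at 1209 ± 50.9 and 2306 ± 50.4 RPM. As a share of the plastid tRNA signal it was not lower, at 1.02 ± 0.00380% and 0.971 ± 0.0453%.

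The Val 5′-half 1-36, which stops after the second base of the anticodon, had 435 and 435 RPM in flower, 7.48 and 4.76 in silique, 1970.5 and 2007 in rosette leaf, 729 and 846 in stem leaf, and 196 and 211 in stem (limma adjusted p = 6.7e-09). The shorter Val 1-20, in contrast, had 1831 and 2117 RPM in silique, and 5514 and 5861 in rosette leaf. Silique was thus 342-fold lower than rosette leaf for 1-36 in pooled reads (95% interval 133 to 1258, from 4 silique reads), whereas 1-20 averaged 1974 ± 202 RPM in silique, with 5688 ± 246 in rosette leaf. Leu 1-37, which keeps the whole anticodon and so spans the junction, had 50.7 and 42.3 RPM in flower, 0 and 0 in silique, 257 and 296 in rosette leaf, 51.6 and 47.2 in stem leaf, and 73.2 and 61.4 in stem (limma adjusted p = 3.6e-06). Silique was at least 24.7-fold lower than rosette leaf. Gly 1-34 had 12.4 and 33.2 RPM in flower, no reads in silique, 147 and 236 in rosette leaf, 67.3 and 51.5 in stem leaf, and 30.8 and 14.7 in stem (limma adjusted p = 1.5e-04). Silique was at least 17.1-fold lower than rosette leaf.

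The most abundant fragments had another order. Leu 1-24 had 2705 and 2965 RPM in flower, 1973 and 2113 in silique, 1864 and 1977 in rosette leaf, 5239 and 5431 in stem leaf, and 7803 and 7648 in stem (limma adjusted p = 4.9e-09). It was highest in stem, and the silique and rosette leaf libraries overlapped. Val 1-20 was highest in stem leaf at 9468 ± 497 RPM, close to flower at 9034 ± 99.5 RPM. Ala 1-17 had 1521 and 1558 RPM in flower, 1222 and 1110.0 in silique, 5377 and 5396 in rosette leaf, 6249 and 6878 in stem leaf, and 2931 and 2812 in stem (limma adjusted p = 1.7e-09). Both reproductive tissues lay below the vegetative ones. Gly 1-18 was also highest in stem leaf, at 322 ± 27.6 RPM, and lowest in silique at 88.6 ± 17.5 RPM, while Lys 1-24 had its highest mean in stem leaf at 117 ± 41.3 RPM and its lowest in flower at 17.0 ± 3.56 RPM.

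Apart from Ile, given above, the leading 3′ fragments of the other types also had their lowest mean in silique, although for Ala silique and flower overlapped. Leu 51-88 had 1181 and 1075 RPM in flower, 108 and 121 in silique, 2001 and 1936 in rosette leaf, 1288 and 1445 in stem leaf, and 582 and 386 in stem (limma adjusted p = 2.3e-07). Gly 35-74 had 108 and 74.2 RPM in flower, 7.48 and 0 in silique, 432 and 487 in rosette leaf, 105 and 132 in stem leaf, and 30.8 and 9.82 in stem (limma adjusted p = 9.7e-04). Ala 49-76 had 55.9 and 42.3 RPM in flower and 63.5 and 23.8 in silique, with 386 ± 51.8 in rosette leaf, and Val 49-77 had 2.38 ± 3.37 RPM in silique, with 96.9 ± 45.0 in rosette leaf. Lys 36-75 had no reads in silique and was highest in stem leaf at 53.3 ± 5.57 RPM. Where a fragment had 0 to 2 reads in silique, its level there cannot be told from the floor of 3 reads, which is 11.2 RPM in replicate 1 and 7.15 RPM in replicate 2.

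A few positions carried substitutions in several fragments. At base 47 of Ala, T47C was seen in 3 fragments with a mean of 31.1 RPM over 10 libraries, T47A in 2 fragments and T47G in 1. At base 46 of Ile, T46C was seen in 3 fragments with no reads in silique and, in rosette leaf, 95.2 RPM together. In Val the most frequent were G10T and G10C, with means over 10 libraries of 41.9 and 24.2 RPM. Fragments with a mismatch made up 1.26 ± 0.169% of Ala reads in silique and 2.18 ± 0.197% in rosette leaf, and 12.4 ± 0.770% of Lys reads in rosette leaf. The source of these substitutions was not tested.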

How the data were processed

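The deposited tables give each tRNA's abundance, the summed tRFs of each tRNA and each single fragment for 10 Arabidopsis libraries (5 tissues, 2 libraries each). Per the file headers, the authors' values are log2 of RPM plus 1. The values fit whole reads in 100% of cases (within 0.05) with 0.5 added in the 2 tables per tRNA and with 1 added in the fragment table, and these offsets were used to return to RPM. Per the submitters' processing notes, the tools include cutadapt and the build is TAIR10, with no versions or roles given. Aligner, allowed mismatches and the handling of shared reads were not given in the sources used here. One read equals 1.42 to 43.1 RPM of tRNA signal, which limits the precision of low values.

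Each table was fitted whole with limma 3.58.1 in R 4.3.3 (trend) on log2(RPM + 1) keeping a mean of 1 RPM or more, with 1 mean per tissue and identical features joined. Calls use a Benjamini-Hochberg adjusted p under 0.05 over the table. Such log2 folds understate changes of features with levels near the pseudocount. In silique 1 read is 43.1 RPM of tRNA signal in replicate 1 and 28.7 RPM in replicate 2. Libraries with 0 reads there are set far below 1 read, which can enlarge the fold. Fits and permutations were tested on simulated data. Fragments were assigned to the tRNA with the fewest mismatches, at most 2. Shares of 5′ fragments were tested by the range of the 5 tissue means, in an exact permutation test over 945 partitions of the 10 libraries (one-sided for a large range, whatever the tissues' order). Since partitions that keep the pairs with the highest and lowest mean give the same range, 0.0159 is the smallest p. Coordinates are RefSeq's chloroplast; file starts lie 1 base lower at all 8 loci.

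The members and lists were chosen with earlier results of these data known. All 6 members are named, with fragments chosen by abundance and range (mean of at least 10 RPM, libraries of the highest and lowest tissue not overlapping). Alternatives were a pseudocount of 10 RPM, no filter, rescaling, plastid scaling, a replicate block, other fragment sets and leaving out each library. Rice comparisons were planned but had no member.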

Additional observations from a re-analysis of the deposited data

How the results depend on the processing

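Most results changed little: of 460 values under alternatives, 416 were labelled as the same. For a count of calls this means a count close to the main one. For the other values it means the same direction and the same side of the threshold. Scaled by the plastid total, 3 members were higher and 1 lower in tRF totals of reproductive against vegetative tissues, and the log2 folds of Leu (0.28), Ile (0.30) and Lys (1.01) reversed. The plastid tRF total itself was lower in reproductive tissues, at 12.1% of tRF totals in flower and 10.6% in silique, with 31.2% in rosette leaf, 31.5% in stem leaf and 21.5% in stem. Rescaled to equal totals, 28 tRNAs of the whole table were lower in tRNA signal, against 17 in RPM, and 76 against 107 were higher. Among fragments of at least 18 nt the 5′ share ranges of Ile (16.2 points, adjusted p = 0.0635) and Leu (24.5 points, adjusted p = 0.0714) lost their call by exact permutation. With all fragments the ranges were 16.2 points in Ile and 23.1 in Leu, so the lost calls do not reflect smaller ranges. Each adjusted p also depends on the p-values of the other types. Leaving out 1 library gave ranges of 17.6 to 18.8 points in Ala, 14.99 to 17.5 in Ile, 1.93 to 2.05 in Val and 22.6 to 23.6 in Leu. The permutation could not settle whether these calls hold with 1 library fewer. The count of all single fragments called lay between 1248 (without flower replicate 1; 1273 without flower replicate 2) and 2011 when 1 library was left out, against 1931 with all, and that of member fragments between 111 and 162. With the replicate number as a block, 6 of 6 members stayed lower in both tables and 164 member fragments were called. The block rests on numbers that did not pair the libraries: deviations of same-numbered libraries correlated at -0.13 to 0.25 in tRNA signal and -0.06 to 0.30 in tRF totals over 10 pairs of tissues, with 5 and 4 of them over 0.1. Depth limits the tRNA signal in silique, where Gly, Lys and Val rest on 2 reads each.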
